A study of Mus musculus with 12 samples.

Results

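Transcripts of 10 bone cell genes were followed in 12 cochlear libraries: Runx2, Sp7, Ibsp and Bglap of osteoblasts, Dmp1, Phex, Mepe and Sost of osteocytes, and Ctsk and Acp5 of osteoclasts. The genes were chosen by name, as established markers of the 3 bone cell types, and all 10 were found among the 23921 genes of the expression table that could be read. The RNA came from whole cochleae of mice on a mixed 129S2/SvPas:C57BL/6 background, cleared of adjoining tissue and kept in RNAlater. There were 3 libraries in each of 4 groups. Wild type (WT) libraries were E1, E3 and E4 at 5 months and F1, F10 and F12 at 8 months. Dusp1-/- libraries were E7, F18 and F19 at 5 months and F5, F6 and F27 at 8 months. Dusp1-/- is a germline knockout of the phosphatase DUSP1, which switches off stress-activated kinases, so every tissue of these animals, bone included, carries it. Each library has a code of its own, but the sources used here do not spell out that each is a single animal, and p-values measure only the spread between these libraries.

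The mammalian cochlea is a coil of soft tissue encased in the otic capsule, a dense bone that is hardly remodelled in adult life. Osteoblasts lay down bone matrix under the transcription factors RUNX2 and SP7, and those that become buried turn into osteocytes, which govern mineral deposition and phosphate and send the signals that tell other bone cells to build or resorb. Osteoclasts arise from the monocyte lineage, acidify the bone surface and digest its matrix with secreted enzymes, and osteoprotegerin, a decoy receptor made in quantity by the inner ear, is known for holding them back in the capsule.

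Libraries differed in the other cells they held. Cochlear genes were present throughout, Coch at 1888 to 2983 FPKM and Otos at 1474 to 2763 FPKM (FPKM, a read density scaled to transcript length and library size). The summed level of 15 marrow neutrophil genes ran from 71.3 to 683 FPKM in WT and from 4217 to 23285 FPKM in Dusp1-/- at 5 months, and from 694 to 4672 and from 910 to 17102 FPKM at 8 months, with the highest sums in E7 and F5. Skeletal muscle genes summed to 1820 FPKM in E3 and 1364 FPKM in F18, against 265 to 591 FPKM in the other 10 libraries. Pvalb, a gene of that list, made up 248 to 509 FPKM of these sums. Brain genes summed to 1050 to 1286 FPKM in WT and 778 to 985 FPKM in Dusp1-/- at 5 months. At 8 months they summed to 982 to 1060 and 807 to 1014 FPKM. In E1 the brain genes Gad1 and Slc32a1 stood at 41.9 and 10.4 FPKM, against at most 4.65 and 0.126 FPKM in any other library. Xist, transcribed in female cells, exceeded 1 FPKM at 5 months in 1 WT library (E4) and no Dusp1-/- library. At 8 months it did so in 1 WT library (F1) and 2 Dusp1-/- libraries (F6 and F27). Dusp1 itself ran against the label: its transcripts stood at 61.9, 81.5 and 75.3 FPKM in the libraries labelled Dusp1-/- and at 60.8, 47.6 and 29.5 FPKM in WT at 5 months, and at 55.6, 73.7 and 57.1 against 43, 38.3 and 38.6 FPKM at 8 months. FPKM of a whole gene do not tell which allele was read, and every direction below rests on the labels.

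All 10 genes were well above detection, and their levels fell into tiers that every library kept. Bglap, which encodes osteocalcin, a small protein that binds mineral in the matrix, was the most abundant, with 246 ± 61.2 FPKM (mean ± SD, n = 12) and a range of 162 to 375 FPKM. A further 6 genes lay between 66.3 and 87.2 FPKM on average. They were Ibsp (bone sialoprotein, which nucleates mineral), Sost (sclerostin, an inhibitor of Wnt signalling from osteocytes), Acp5 (tartrate-resistant acid phosphatase), Ctsk (cathepsin K, the collagenase of osteoclasts), Dmp1 and Mepe (acidic matrix phosphoproteins of osteocytes). Phex, a membrane protease whose loss causes phosphate wasting, averaged 18.6 ± 2.95 FPKM, Sp7 17.2 ± 1.43 FPKM and Runx2, the factor upstream of Sp7, 10 ± 1.08 FPKM.

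Bglap exceeded Ibsp in 12 of 12 libraries, Mepe exceeded Phex in 12 of 12 and Sp7 exceeded Runx2 in 12 of 12, and at these steps the ranges did not overlap. Neighbours within the middle tier overlapped. Acp5 was above Ctsk in 6 of 12 libraries, Dmp1 above Mepe in 7 and Ibsp above Sost in 8, so no order could be set among them. Phex was above Sp7 in 8 of 12 libraries. Among the 16269 genes that averaged 0.5 FPKM or more and were tested, Bglap stood at percentile 98.2 by level, the middle tier at percentiles 91.9 to 94.3, and Runx2 at 48.4.

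**Figure D1:**
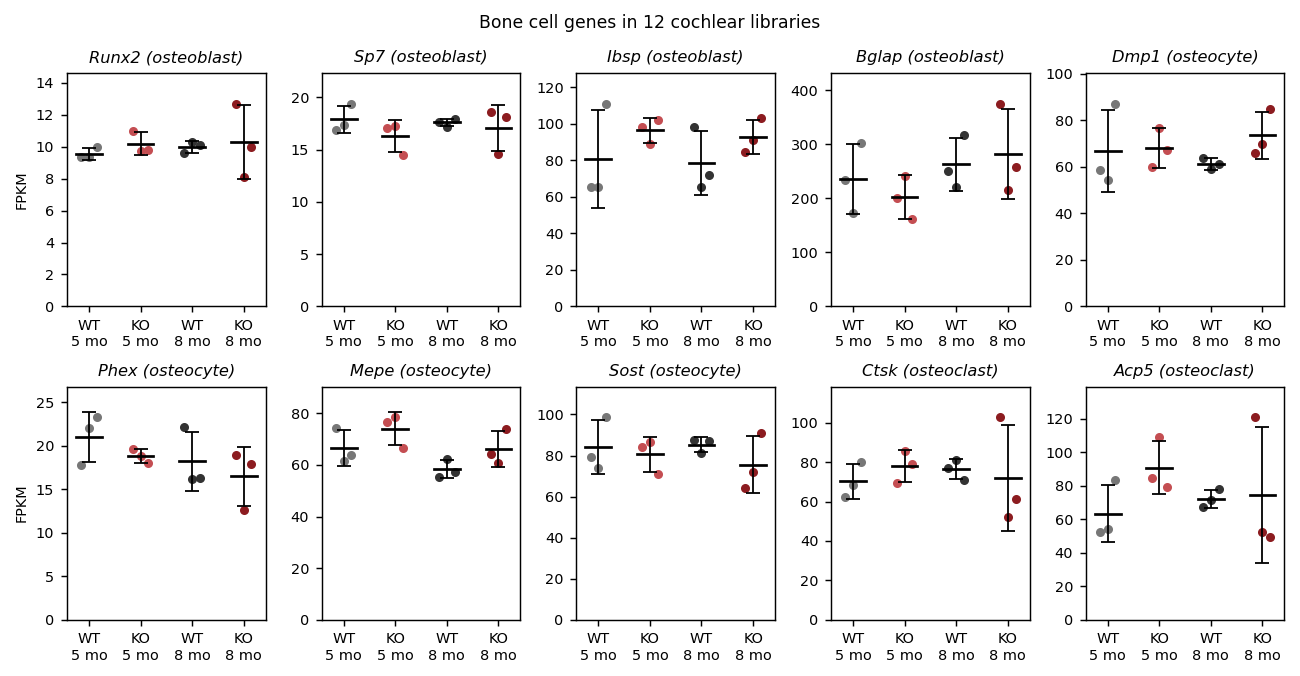
Levels of the 10 bone cell genes in FPKM (vertical axes, each from 0) in the 4 groups of 3 libraries. Points are libraries, horizontal bars are group means and whiskers are 1 SD. Wild type and Dusp1-/- libraries overlap in every panel at 5 months, and at 8 months in all but Dmp1, where the Dusp1-/- libraries lie between 65.8 and 85.1 FPKM and WT between 58.9 and 63.7 FPKM.

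The 10 genes varied at most 2.46-fold from library to library. Over the 12 libraries the highest value divided by the lowest was 1.33 for Sp7, 1.42 for Mepe, 1.54 for Sost and 1.56 for Runx2, and it reached 2.31 for Bglap and 2.46 for Acp5. The summed level of the 10 genes ran from 599 FPKM in E3 to 928 FPKM in F5. The summed neutrophil genes, by comparison, differed 327-fold between E4 and E7, the erythroid genes 5.49-fold and the muscle genes 6.87-fold. The last 2 sums understate the variation, because Hbb-b1 (684 to 3605 FPKM) and Pvalb (248 to 509 FPKM) were abundant in every library. Taken gene by gene, the median of the highest over the lowest value was 442 for the neutrophil, 44.8 for the erythroid and 176 for the muscle list. Against genes in general the bone cell genes were not unusually steady. Their median range on the log2 scale, 0.72, was above the median of 0.58 for all tested genes and above 0.47 for the 8110 tested genes whose mean lay in the same range of FPKM. In bulk RNA, fewer cells of a type and less RNA per cell cannot be told apart.

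**Figure D2:**
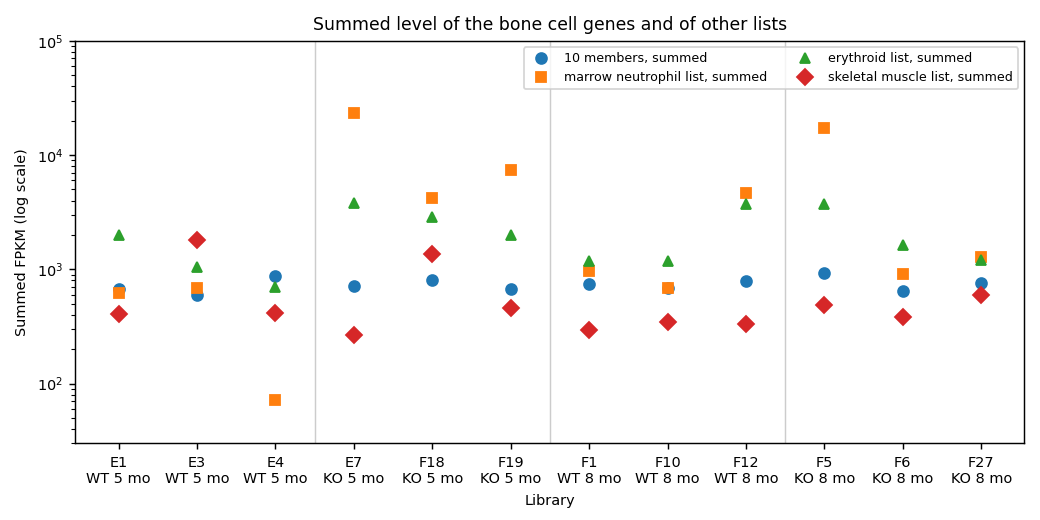
Summed FPKM (log scale) of the 10 bone cell genes and of the marrow neutrophil, erythroid and skeletal muscle lists in each of the 12 libraries, with grey lines between groups. The bone cell sum stays between 599 and 928 FPKM while the neutrophil sum runs from 71.3 to 23285 FPKM.

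Where the extremes fell was uneven. E4, a WT library of 5 months, held the highest value of 5 of the 10 genes (Ibsp, Sost, Dmp1, Phex and Sp7), and F5, a Dusp1-/- library of 8 months, that of 4 (Bglap, Acp5, Ctsk and Runx2). Mepe peaked in F18. The lowest values were scattered over 7 libraries, with 3 in F6. E4 had the lowest neutrophil sum of all, 71.3 FPKM, and F5 the next highest, 17102 FPKM. The coefficients of each gene with the neutrophil level are given further on.

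The genes lie in places that matter for reading them. Dmp1 (chr5:104631636-104643121, mm9, + strand), Ibsp (chr5:104728306-104740491, +) and Mepe (chr5:104754348-104767630, +) sit in a row in the cluster of small integrin-binding ligand N-linked glycoproteins, 85.2 kb and 13.9 kb apart, with Spp1 (osteopontin) 96.5 kb beyond Mepe and the dentine gene Dspp 22.5 kb before Dmp1. Spp1 was far more abundant than its neighbours, at 2016 to 2596 FPKM, whereas Dspp was listed at 0 in 8 of 12 libraries and never exceeded 0.0189 FPKM. Bglap (chr3:88187417-88188388, -) has near copies in Bglap2 and Bglap3, 4.8 kb and a further 8 kb away. Of the 430 stretches of 50 bases, the read length, in its shorter transcript, 69.1% also occur in another copy, so reads could be assigned to either gene and the level of Bglap is uncertain. Bglap2 was given 47.2 to 109 FPKM and Bglap3 5.31 to 21.3 FPKM. Runx2 (chr17:44632936-44951746, -) lies 18 Mb from Dusp1 on the same chromosome. Exons of other genes overlapped none of the 10 on either strand.

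Stretches before the starts of genes in this set that hold the core letters bound by RUNX factors are shown, a single start per gene. Runx2, the factor itself, and these carriers were all measured here. Each run gives the 250 bases before the annotated start, 5′ to 3′ on the gene's strand, read from the mm9 genome, with TGTGGT or its reverse complement ACCACA in capitals. Bglap2 is included as the near copy of Bglap.
Runx2 (chr17:44951577-44951826, -): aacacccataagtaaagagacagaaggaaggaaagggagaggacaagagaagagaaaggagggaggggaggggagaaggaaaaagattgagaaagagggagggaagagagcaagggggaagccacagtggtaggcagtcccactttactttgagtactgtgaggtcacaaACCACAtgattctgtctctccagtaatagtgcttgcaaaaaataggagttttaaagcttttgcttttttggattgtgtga
Bglap (chr3:88188389-88188638, -): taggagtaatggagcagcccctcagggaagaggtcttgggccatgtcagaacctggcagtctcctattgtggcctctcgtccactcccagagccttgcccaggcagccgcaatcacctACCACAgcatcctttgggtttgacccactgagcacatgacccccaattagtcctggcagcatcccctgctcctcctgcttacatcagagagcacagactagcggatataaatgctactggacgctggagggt
Bglap2 (chr3:88182622-88182871, -): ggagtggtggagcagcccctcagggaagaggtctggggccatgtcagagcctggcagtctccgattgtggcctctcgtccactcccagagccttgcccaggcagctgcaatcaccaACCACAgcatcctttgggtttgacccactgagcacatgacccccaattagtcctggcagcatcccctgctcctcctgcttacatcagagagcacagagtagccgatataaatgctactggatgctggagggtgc
Dmp1 (chr5:104631386-104631635, +): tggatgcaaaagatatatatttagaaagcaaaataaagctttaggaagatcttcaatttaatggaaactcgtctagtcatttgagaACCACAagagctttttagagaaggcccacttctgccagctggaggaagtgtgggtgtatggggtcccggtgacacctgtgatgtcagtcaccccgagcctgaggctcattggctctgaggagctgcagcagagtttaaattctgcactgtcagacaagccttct
Mepe (chr5:104754098-104754347, +): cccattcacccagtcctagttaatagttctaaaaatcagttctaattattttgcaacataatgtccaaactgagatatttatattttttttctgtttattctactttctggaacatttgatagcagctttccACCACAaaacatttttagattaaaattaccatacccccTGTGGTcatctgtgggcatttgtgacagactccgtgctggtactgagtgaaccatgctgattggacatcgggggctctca
Within 250 bases before and 50 after the start, on either strand, TGTGGT was found at 1 or more starts of Runx2, Bglap, Dmp1 and Mepe, that is in 4 of the 10 genes and 5 of their 15 windows, against 14.7% of the 27515 windows of all genes. In Bglap the core began 132 bases before the start and a TATA box (TATAAA) 27 bases before it. The stretches of Bglap and Bglap2 were identical in 94.4% of aligned positions, and Bglap2 held the core at 134 bases. Mepe held it at 118 and at 80 bases, and Dmp1 at 164 bases. The Runx2 start shown held it at 80 bases before the start. It also held the core at bases 24 and 32 counted from the start, beyond the stretch printed. The other letters searched were TAATTA (homeodomain core, 2 of the 15 windows against 4.54% of all windows), TGANTCA (AP-1, 1 of 15 against 7.22%), TGGAAA (NFAT core, 4 of 15 against 19.6%) and TATAAA (3 of 15 against 12.9%). In Mepe the NFAT letters share a base with the RUNX core. These matches describe letters in a window and no factor's binding was measured. Of the 10 genes, 9 had a start whose window was found letter for letter in the promoter table of RefSeq (GRCm38.p6).

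The first comparison asked whether Dusp1-/- cochleae differed from WT at 5 months. None of the 10 genes was called by limma at an adjusted p under 0.05 (Benjamini-Hochberg over all genes), where 0.0676% of the 16269 tested genes were called, and 0 of the 10 reached an unadjusted p under 0.05, where 18.2% of all genes did. The groups overlapped for all 10, whereas they did not for 25% of all tested genes. Of the 10, 6 lay above WT and 4 below, and their median log2 change was 0.07, beside -0.03 over all tested genes.

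The osteoclast phosphatase Acp5 had the largest difference at this age. It stood at 84.6, 109 and 79.1 FPKM in Dusp1-/- and at 52.5, 54.4 and 83.1 FPKM in WT. The groups overlapped only through the highest WT library, E4, and the lowest Dusp1-/- library, F19. The log2 change was 0.54 ± 0.31 (SE), a fold of 1.45 with a 95% interval of 0.898 to 2.34 (limma adjusted p = 0.388). An exact permutation test of 3 against 3, two-sided, gave p = 0.2, and 0.1 is the smallest it can give.

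Ctsk, the other osteoclast enzyme, measured 69.2, 85.6 and 79.2 FPKM in Dusp1-/- and 62.4, 68.4 and 80.2 FPKM in WT, a log2 change of 0.15 ± 0.21. Its groups overlapped. Ibsp stood at 98.3, 88.9 and 102 FPKM against 65.3, 65.4 and 111 FPKM, a log2 change of 0.30 ± 0.21 (95% interval -0.16 to 0.76). Here E1 and E3 lay below all Dusp1-/- libraries and E4 above them all. Without E4 the change in Ibsp was 0.56 (limma unadjusted p = 0.00665, adjusted p = 0.245) and that in Acp5 was 0.75 (adjusted p = 0.314). These were the largest values with any 1 library left out, and the ranges were 0.17 to 0.56 for Ibsp and 0.40 to 0.75 for Acp5. E4 was also the only 5-month library with Xist above 1 FPKM.

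In the other direction, Bglap measured 200, 242 and 162 FPKM in Dusp1-/- and 233, 173 and 303 FPKM in WT. The groups overlapped widely, with a log2 change of -0.21 ± 0.26. With any 1 library left out it ran from -0.42 (without E3) to -0.01 (without E4), and without both E3 and F18, the muscle-rich libraries, it was -0.56 (limma unadjusted p = 0.0787, adjusted p = 0.412). Phex (-0.15 ± 0.17), Sp7 (-0.13 ± 0.10) and Sost (-0.05 ± 0.14) also lay below WT, and Mepe (0.15 ± 0.10), Runx2 (0.08 ± 0.13) and Dmp1 (0.05 ± 0.17) above it. A missed threshold does not show that levels were alike: the 95% intervals still allowed folds of 0.583 to 1.28 for Bglap, and the narrowest, for Sp7, folds of 0.781 to 1.07. Phex lies on the X chromosome, and with the Xist level as a covariate its log2 change was -0.11 ± 0.18. In that fit the change in Ibsp at 5 months was 0.47 ± 0.11 (limma unadjusted p = 0.00204, adjusted p = 0.21) and that in Sost at 8 months was -0.27 ± 0.11 (limma unadjusted p = 0.0457, adjusted p = 0.944).

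**Figure D3:**
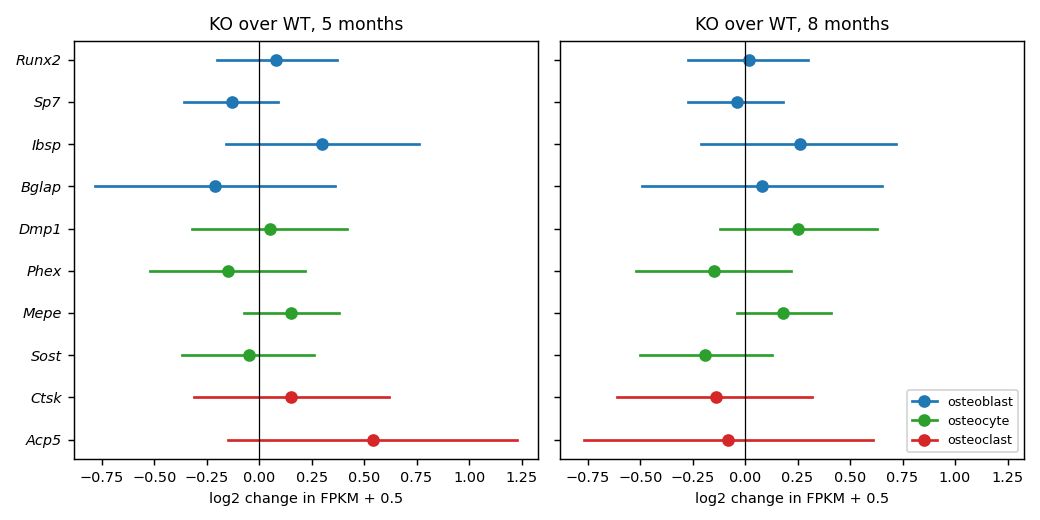
Log2 change of Dusp1-/- over WT in FPKM + 0.5 (horizontal axes) for each of the 10 genes at 5 months (left) and 8 months (right). Dots are limma estimates and lines are 95% intervals, from 3 libraries a group, and colours mark the cell type. Every interval at both ages includes 0, and that of Acp5 is the widest, -0.15 to 1.23 at 5 months.

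At 8 months limma called none of the 10 genes either (0.0123% of all tested genes were called), and 0 of the 10 had an unadjusted p under 0.05, beside 5.18% of all genes. Changes ran from -0.19 to 0.26, with a median of -0.01, and 5 genes lay on each side of 0. Dmp1 was the only gene of the 10 whose groups did not overlap. It stood at 65.8, 69.8 and 85.1 FPKM in Dusp1-/- and at 63.7, 58.9 and 61.1 FPKM in WT, a log2 change of 0.25 ± 0.17 (95% interval -0.12 to 0.63, limma adjusted p = 0.965). The exact permutation p was 0.1, the smallest that 3 against 3 can give. Groups that do not overlap were found for 10.3% of all tested genes at this age, so 1 gene of 10 is near the background. At 5 months the Dmp1 groups overlapped, at 60.1, 76.9 and 67.4 against 58.8, 54.5 and 87.2 FPKM.

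The osteoclast genes spread most among the 8-month Dusp1-/- libraries. Acp5 was at 121 FPKM in F5 but at 52.5 in F6 and 49.3 in F27, with all 3 WT libraries between them at 67.3, 71.2 and 77.7 FPKM. Ctsk followed the same pattern, with 103, 52.3 and 61.5 FPKM against 77.3, 81.3 and 71.1 FPKM in WT. The mean changes were therefore small, -0.08 ± 0.31 for Acp5 and -0.14 ± 0.21 for Ctsk, and rested on F5. Without F5 they were -0.50 (limma unadjusted p = 0.0327, adjusted p = 0.826) and -0.43 (unadjusted p = 0.00847, adjusted p = 0.733). With any 1 library left out they ran from -0.50 to 0.15 and from -0.43 to 0.06. F5 was also the only library of its group low in Xist, at 0.055 FPKM against 34.9 in F6 and 47.6 in F27. What goes with F5 and what goes with Xist cannot be told apart in this group. F5 and F27 were also the highest and lowest of these 3 libraries in Atp6v0d2, the osteoclast proton pump subunit, at 7.62 and 3.1 FPKM.

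Sost measured 64.2, 71.8 and 90.9 FPKM in Dusp1-/- and 87.8, 81.1 and 87.1 FPKM in WT at 8 months (-0.19 ± 0.14). F27 lay above all WT libraries and the other Dusp1-/- libraries below them. Ibsp, at 84.4, 91.3 and 103 against 98.4, 65.3 and 72 FPKM, overlapped (0.26 ± 0.21). Bglap, Runx2, Sp7 and Phex had log2 changes of 0.08, 0.02, -0.04 and -0.15, and for Runx2 the 95% interval was a fold of 0.831 to 1.23. Without F6, which held the lowest Runx2, Phex and Ctsk, these values were 0.26, 0.17, 0.06 and 0.03, and without F5 they were -0.14, -0.14, -0.11 and -0.26.

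Averaged over both ages, 1 of the 10 genes reached an unadjusted p under 0.05, where 17.4% of all genes did, and none was called (0.0799% of all genes). This gene was Mepe, whose protein regulates mineralisation and is made mainly by osteocytes. It stood at 76.7, 78.6 and 66.6 FPKM in Dusp1-/- and at 74.4, 61.4 and 63.7 FPKM in WT at 5 months. At 8 months it stood at 64.1, 60.7 and 74.1 against 55.5, 62.3 and 57.2 FPKM. The groups overlapped at each age. The averaged log2 change was 0.17 ± 0.07 (limma unadjusted p = 0.0414, adjusted p = 0.27), a fold of 1.12 with a 95% interval of 1.01 to 1.25, and the exact permutation test within ages gave p = 0.04, where 0.005 is the smallest possible. Without E4 the change was 0.15 (limma unadjusted p = 0.0843). Larger averaged changes with wider intervals were those of Ibsp, 0.28 ± 0.15 (95% interval -0.05 to 0.61), and Acp5, 0.23 ± 0.22 (-0.26 to 0.71). That of Acp5 was 0.02 without F5 (limma unadjusted p = 0.887). Without E4 the averaged change in Ibsp was 0.41 (limma unadjusted p = 0.00404, adjusted p = 0.179) and in Dmp1 0.26 (unadjusted p = 0.0137, adjusted p = 0.234), from 0.15 with it. With any 1 library left out, the averaged change ran from 0.22 to 0.41 for Ibsp and from 0.09 to 0.26 for Dmp1.

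Whether the genotype difference itself changed with age was read from the interaction term, which shares all 12 libraries with the comparisons above. None of the 10 was called (0.00615% of all genes were) and none had an unadjusted p under 0.05, beside 4.67% of all genes. The largest was Acp5, for which the log2 change at 8 months minus that at 5 months was -0.62 ± 0.44 (95% interval -1.59 to 0.36). Without F5 and E7, both rich in neutrophil transcripts, it was -1.08 (limma unadjusted p = 0.00622, adjusted p = 0.443). For Ctsk the term was -0.29 ± 0.30, and without the same libraries it was -0.66 (limma unadjusted p = 0.00428, adjusted p = 0.443). Without F5 alone the terms were -1.03 for Acp5 (limma unadjusted p = 0.00353, adjusted p = 0.317) and -0.58 for Ctsk (limma unadjusted p = 0.00812, adjusted p = 0.32). With any 1 library left out they ran from -1.03 to -0.39 for Acp5 and from -0.58 to -0.09 for Ctsk.

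Comparison of 8 with 5 months showed no called gene among the 10 in WT (0.0123% of all genes were called) or in Dusp1-/- (0%), and none with an unadjusted p under 0.05 (7.84% and 12.6% of all genes). The age groups overlapped for all 10 in both genotypes, and they did not for 19.2% of all genes in WT and 15.7% in Dusp1-/-. The log2 difference, 8 over 5 months, of Mepe was -0.18 ± 0.10 in WT and -0.16 ± 0.10 in Dusp1-/-, and that of Phex was -0.21 ± 0.17 in each. With all libraries in the fit Bglap had the largest age difference of the 10, 0.46 ± 0.26 in Dusp1-/- (95% interval -0.11 to 1.03, limma adjusted p = 0.472), and in WT it was 0.17 ± 0.26. Acp5 and Ctsk differed by -0.40 ± 0.31 and -0.17 ± 0.21 in Dusp1-/-. These values rested on F5. Without it Bglap was at 0.24, Acp5 at -0.82 (limma unadjusted p = 0.00246, adjusted p = 0.154) and Ctsk at -0.45 (limma unadjusted p = 0.00632, adjusted p = 0.161). With any 1 library left out they ran from 0.24 to 0.64, from -0.82 to -0.17 and from -0.45 to 0.03. Without F5 the 8-month Dusp1-/- libraries were all high in Xist and the 5-month ones all low.

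By Pearson's r the closest relation over the libraries was that between the osteoclast genes. Among 55 relations, which are all 45 pairs of the 10 genes and each gene against the mean log2 level of the neutrophil list, Ctsk with Acp5 had the highest Pearson's r (r = 0.86, permutation p = 0.00038, adjusted p = 0.0209 over the 55, Spearman's rho = 0.82, permutation p = 0.00199, adjusted p = 0.0547). It was the only relation below an adjusted p of 0.05 by Pearson's r, and by Spearman's rho none was. The coefficient was 0.80 without the libraries farthest from the median of Ctsk, and 0.89 for deviations from the group means. Within a library the ratio of Acp5 to Ctsk lay between 0.795 and 1.27. It was 0.84, 0.795 and 1.04 in WT and 1.22, 1.27 and 0.999 in Dusp1-/- at 5 months, where the exact permutation p was 0.2.

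**Figure D4:**
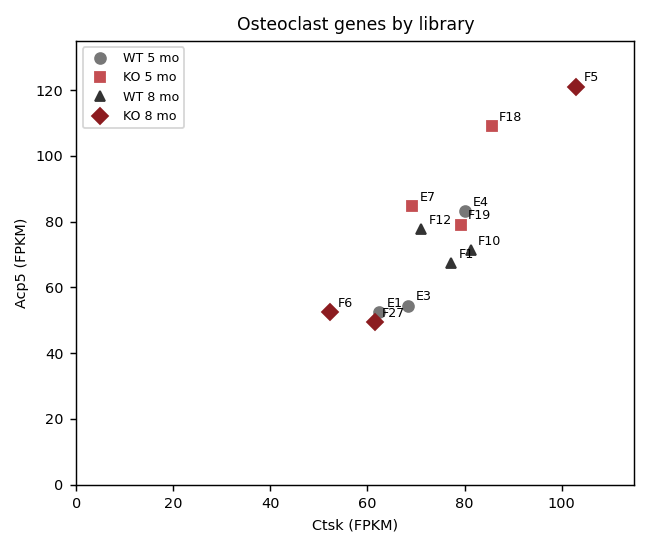
Acp5 against Ctsk in FPKM (both axes from 0) in the 12 libraries, with the library code beside each point and the group given by symbol. The points lie along a rising band with F5 at the top (103 and 121 FPKM) and E1, E3, F6 and F27 at the lower end.

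By Pearson's r over all 12 libraries the bone-forming genes formed no single block. Ibsp with Dmp1 (r = 0.75, permutation p = 0.00602, adjusted p = 0.124) and Sp7 with Bglap (r = 0.70, permutation p = 0.012, adjusted p = 0.132) were the closest pairs, and kept r = 0.70 and 0.71 without the libraries farthest from the median. Their Spearman coefficients were 0.78 (permutation p = 0.00421) and 0.83 (permutation p = 0.0017), the latter above that of Ctsk with Acp5. For deviations from the group means their r was 0.74 and 0.76. By that measure Dmp1 with Sost was higher, at 0.81 against 0.47 over all libraries, while Ibsp with Mepe was at -0.26. Bglap with the osteoclast gene Acp5 was also at 0.81, against 0.43 over all libraries. Runx2 with Sp7 was at 0.74, Sp7 with Phex at 0.72 and Runx2 with Bglap at 0.61 by the same measure. Ibsp and Mepe, neighbours on chromosome 5, had r = 0.16, and Dmp1 and Mepe r = 0.27. Runx2 had r = 0.76 with Ctsk (permutation p = 0.00715, adjusted p = 0.124) but 0.09 without the libraries farthest from its median, so that relation rested on those libraries. With all libraries it was 0.78 for deviations from the group means. Runx2 with Acp5 had r = 0.70 (permutation p = 0.00899, adjusted p = 0.124). That coefficient was 0.40 without the libraries farthest from the median of Runx2 and 0.73 for deviations from the group means. Against the neutrophil level Acp5 had r = 0.59 (permutation p = 0.0463, adjusted p = 0.319), falling to 0.37 without the libraries farthest from the median, Runx2 had r = 0.59 and 0.16 in the same way, and Ctsk had r = 0.37. For the other 7 genes r lay between -0.41 for Sost and 0.29 for Mepe.

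**Figure D5:**
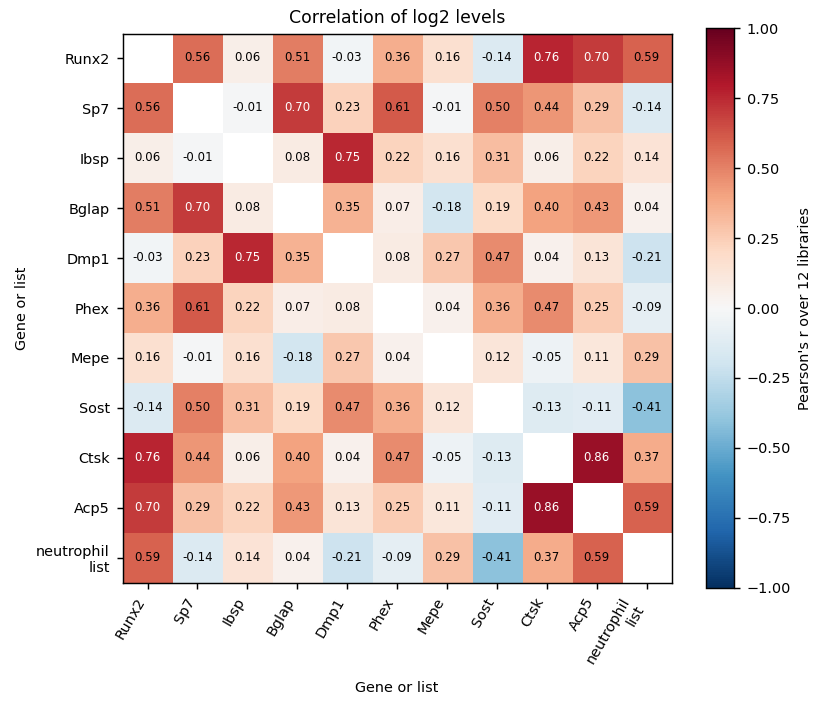
Pearson's r of log2(FPKM + 0.5) over 12 libraries for each pair of the 10 genes and for the mean level of the neutrophil list, with the value printed in each square and the colour scale from -1 to 1. Ctsk with Acp5 is highest at 0.86, and the row of the neutrophil list runs from -0.41 for Sost to 0.59 for Acp5 and Runx2.

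Among all other tested genes, those whose log2 level over the 12 libraries was most like the mean of the 8 osteoblast and osteocyte genes included Vdr (r = 0.91), Mid1 and Nrp2 (0.83 each), Col22a1 and Egfl6 (0.82 each), Lrp4 and Abcc9 (0.79 each), and S100a7a and Ifitm5 (0.78 each). Those most like the mean of Ctsk and Acp5 included Slc37a2 (0.91), Col4a1 (0.88), Xrcc3 (0.86), Mst1r (0.85), Flt4 and Cryba4 (0.83 each), Atp6v0d2 (0.82), Sh3tc1 (0.81) and Iba57 (0.80). These genes are among the highest of all other tested genes and the coefficients, over libraries that share their cell mixture, describe likeness only.

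Wider lists of bone cell genes, which leave out the 10, were read in the same fit, beside the 18.2% of all tested genes at 5 months and 5.18% at 8 months that had an unadjusted p under 0.05. Of 29 further osteoblast genes 0 were called and 0 had an unadjusted p under 0.05 at 5 months, and at 8 months 0 were called and 1 had an unadjusted p under 0.05, which was lower in Dusp1-/-. Their median changes were -0.04 and 0.02. That gene, given as the smallest p of its list, was Col24a1, a fibrillar collagen of forming bone, at 3.88 FPKM on average against 5.44 FPKM in WT (-0.44 ± 0.12, limma adjusted p = 0.872). Col1a1, the main collagen of bone, was highest in F12 and F5 at 308 and 309 FPKM and lay between 83 and 190 FPKM elsewhere.

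Of 17 tested osteocyte and phosphate genes, 3 were below WT and 0 above it with an unadjusted p under 0.05 at 5 months, near the 18.2% of all genes, and none was called. The smallest p values of the list were those of Kl, the klotho co-receptor of FGF23, at 5.86 FPKM against 8.89 FPKM in WT (-0.57 ± 0.15, limma adjusted p = 0.173), and Slc20a2, a phosphate transporter (-0.34 ± 0.12, limma adjusted p = 0.218). Fgf23, the phosphate hormone of osteocytes, was detected in all libraries at 9.68 to 24.3 FPKM. At 8 months 1 of the 17, near the 5.18% of all genes, was higher at an unadjusted p under 0.05, Pdpn, a membrane protein of osteocyte processes that other cochlear cells also make (0.50 ± 0.15, limma adjusted p = 0.91).

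Of 17 tested osteoclast genes, 5 were above WT and 1 below it with an unadjusted p under 0.05 at 5 months, beside 18.2% of all genes in both directions, with none called and a median of 0.16, and at 8 months 0 passed either threshold, with a median of -0.04. Itgb3, the osteoclast integrin subunit that platelets and megakaryocytes also carry, was at 34.5, 12.7 and 10.3 FPKM in Dusp1-/- and at 3.97, 4.52 and 4.38 FPKM in WT at 5 months (1.84 ± 0.57, limma adjusted p = 0.197). Car2, the carbonic anhydrase that supplies protons and is abundant in red cells and cochlear tissue, was at 200, 179 and 170 against 121, 134 and 167 FPKM (0.39 ± 0.14, limma adjusted p = 0.221). Mmp9, named after its values were seen because neutrophils store its product, ran from 93.9 FPKM in E7 and 69.3 FPKM in F5 down to 13.3 FPKM. The 5 genes above WT by that threshold were Itgb3, Car2, Mmp9, Tcirg1 and Nfatc1, and all 5 were highest in E7 and F5. These were the libraries with the highest neutrophil sums. In E7 and F5 Car2 stood at 200 and 194 FPKM, Tcirg1 at 45.7 and 44.1 FPKM, and Nfatc1 at 9.75 and 8.95 FPKM. Of the neutrophil genes 15 of 15 were above WT at 5 months with an unadjusted p under 0.05 and a median change of 4.94, and limma called 0. The part of these cells in the osteoclast list was not tested. All genes of the list but Car2 and Mmp9 were below the means of Ctsk and Acp5, 74.3 and 75.1 FPKM, in every library. Among them, Atp6v0d2 lay between 3.1 and 7.62 FPKM and Calcr between 0.0638 and 0.361 FPKM. Dcstamp lay between 0.478 and 1.12 FPKM and Ocstamp between 0.15 and 0.658 FPKM.

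The signals that form osteoclasts stood far apart in level. Tnfrsf11b, the osteoprotegerin decoy, was at 48 to 78.6 FPKM, while Tnfsf11, the RANKL ligand it captures, was at 0.617 to 1.96 FPKM and the receptor Tnfrsf11a at 1.58 to 2.46 FPKM. Decoy exceeded ligand by 32.2 to 94.8 times in FPKM. The ratio averaged 81.2 ± 18.4 in WT and 67.7 ± 9.92 in Dusp1-/- at 5 months (exact permutation p = 0.4) and 59.5 ± 30.4 and 51.6 ± 17 at 8 months (exact permutation p = 0.9, n = 3 each). None of the 6 ligand, receptor and decoy genes had an unadjusted p under 0.05 at either age, and limma called none. The smallest p at 8 months was that of Csf1, the growth factor of the osteoclast lineage (0.15 ± 0.07, limma adjusted p = 0.962).

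Of 14 tested cartilage genes, whose cells border bone in the capsule, 1 was higher at an unadjusted p under 0.05 at 5 months and 0 at 8 months, beside 18.2% and 5.18% of all genes, and none was called.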

How the data were processed

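RNA from whole cochleae was sequenced in 12 libraries, 3 per group. According to the methods and labels, the authors made stranded polyA libraries, read single ends, mapped reads to build mm9 (TopHat2 2.0.10 with Bowtie 1.0.0) and computed FPKM with Cufflinks 2.2.1. Of the deposited FPKM values, 55.36% had lost their decimal point. The point was restored here as the only placing whose group mean equals the authors' group FPKM within 2e-05. This worked for 23921 of 23951 genes, and the other 30 were left out. The other deposited columns hold the authors' fold changes and p-values, which were not used. The deposited enrichment reports were not used. Depth is unknown, though the step that 1 read adds to low FPKM, relative to E1, was 0.871 to 1.05 in the other libraries.

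Values were taken as log2(FPKM + 0.5) for 16269 genes with a mean of 0.5 FPKM or more and fitted with limma 3.58.1 (R 4.3.3, variance trend, 4 groups, 6 contrasts), so that a change in a low gene is understated. Adjusted p follows Benjamini-Hochberg over all tested genes. The fit and the restoration were tested on simulated data. Single genes had exact permutation tests, and relations 100000 permutations (SciPy 1.17.1, Python 3.11.15). The 10 genes and all lists were chosen with earlier results of these data known. All 10 are named. From the other lists any called gene was to be named, along with those of smallest unadjusted p at each age. Only some of the latter are given here. Defining genes of a list were named for their level. Atp6v0d2, Col1a1, Mmp9, Tcirg1, Nfatc1, Gad1, Slc32a1 and the ratios were picked after their values were seen. Of the listed symbols, 4 were found under an older name and 4, all erythroid, were not analysed here. Likeness to the mean level of a cell type's genes was Pearson's r over the 12 libraries, taken for the 10 highest genes, some of which are not reported here.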

Additional observations from a re-analysis of the deposited data

How the results depend on the processing

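The 10 genes were recomputed under 23 alternatives: pseudocounts of 0.1 and 1, filters that kept genes averaging over 0 or at least 1 FPKM, scaling by quantiles or by median ratios, a fit with no trend in the variance, fits of the compared groups alone, the Xist level as a covariate, each library left out, and, chosen after seeing the data, E7 with F5 or E3 with F18 left out. None of the 10 was called in any of the 1360 values so obtained (smallest limma adjusted p = 0.154), and 84 values changed sign. The median change of the 10 moved by more than the spread between libraries in a single case: at 8 months it was -0.01, ran from -0.12 without F5 to 0.14 without F6, and stayed within the spread elsewhere. No paired analysis was possible because the labels give no replicate numbers that the groups share. With 3 libraries a group and unknown depth, any change inside a gene's 95% interval remains compatible with the values. The intervals do not give a smallest detectable change. Bglap cannot be told apart from its copies at shared stretches. The 8-month values of Acp5 and Ctsk rest on F5, the only Dusp1-/- library of that age low in Xist.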

Other observations

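Ratios between genes of a library do not change when the library is scaled by a single factor. Quantile scaling can change them, and they were taken here on FPKM without it. Of 8 ratios looked at after the values were seen, Sost over Dmp1 at 8 months was the only one whose groups did not overlap, and at 5 months the groups overlapped for all 8. At 8 months it was 1.38, 1.38 and 1.42 in WT and 0.976, 1.03 and 1.07 in Dusp1-/- (exact permutation p = 0.1, the smallest that 3 against 3 can give, not adjusted for the choice). At 5 months it was 1.35, 1.36 and 1.13 in WT and 1.4, 1.13 and 1.05 in Dusp1-/-, and the groups overlapped (exact permutation p = 0.6). The ratio holds Dmp1, whose own groups did not overlap at 8 months, and whether the ratio differs between ages was not tested.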
